A study of Homo sapiens with 6 samples.

Results

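Ribosome biogenesis factors are the proteins that make, modify, cut, fold and export the precursors of the ribosomal subunits. The 46 factors described here were matched by gene symbol in the deposited tables, out of 57820 genes. They were selected on their known role, with earlier results of these data known. The list was chosen because NOB1 was lower in the mutant. NOB1 is therefore given as a description without a test, and counts of members refer to the other 45. All 46 had at least 1 CPM (counts scaled to library size, normalized by TMM) in every library and so passed the filter on low values, which left 14044 genes to test.

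SEM is a cell line from B-cell acute lymphoblastic leukemia. Total RNA depleted of ribosomal RNA was sequenced from 3 libraries labelled CTCF-WT and 3 labelled CTCF-dRBR, the latter with CTCF that lacks its RNA-binding region (RBR). In all 6, OsTIR1(F74G) was expressed and both copies of endogenous CTCF carried a miniAID-mClover3 tag, through which 5-Ph-IAA causes degradation of the protein. Cells were held in 5-Ph-IAA for 24 h, and after the first 6 h 1 µg/mL doxycycline was given for the remaining 18 h. In the CTCF-dRBR line doxycycline induced HA-CTCF-dRBR from the TRE3G promoter. The methods describe an induced HA-tagged wild-type protein for CTCF-WT, whereas the labels of those libraries name no such transgene. The labels do not say whether the 3 libraries of a group came from separate cultures, so p-values measure the spread between these samples, which may be technical.

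A ribosome begins as a long precursor RNA that RNA polymerase I transcribes in the nucleolus. The small-subunit processome assembles on its first part, the box C/D and box H/ACA snoRNPs (small nucleolar RNAs with their proteins) methylate and pseudouridylate it, and separate sets of factors then carry the precursors of the small and large subunits to the cytoplasm. Growing leukemia cells make many ribosomes, and genes for these factors are well-known targets of the E-box binding factor MYC.

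Total expected counts ranged from 51732177 to 53166735 in CTCF-WT and from 30034505 to 50457168 in CTCF-dRBR, with replicate 1 the shallowest. That library also stood apart in composition. Its Spearman correlation with the other libraries was 0.913 to 0.968, against 0.971 to 0.997 among the other 5, and the deviation of its genes from the mean of the libraries had a rank correlation of −0.78 with GC content. The same correlation ranged from 0.34 to 0.71 in CTCF-WT and was −0.42 and 0.50 in CTCF-dRBR replicates 2 and 3. CTCF itself, whose mRNA cannot check a swap of the protein, had 210 to 249 CPM in CTCF-WT and 252 to 273 in CTCF-dRBR (log2 fold change 0.24 ± 0.10, limma-voom adjusted p = 0.20). Of the B-lineage markers, 6 of 7 were above 15 TPM (counts scaled to gene length and to a fixed total) in every library and DNTT was at 0.12 TPM or less, while the summed TPM of the T-lineage list was at most 0.57, of the myeloid list at most 3.05 and of the erythroid list at most 0.08.

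More factors were lower than higher in CTCF-dRBR, and each factor whose groups did not overlap was lower, but none passed the test over all genes. Of the 45 factors other than NOB1, 33 had a log2 fold change below 0, as did 50.6% of all genes tested. Their median log2 fold change was −0.29, against −0.01 over all genes. In 23 of the 45 every CTCF-dRBR library lay below every CTCF-WT library, an order found in 17.5% of all genes, and in 0 of the 45 every CTCF-dRBR library lay above, an order found in 20.0% of all genes. By limma-voom, 0 of 45 had an adjusted p under 0.05, as for 0.0% of all genes. The smallest adjusted p was 0.096, shared by NOP2, FBL, NAT10, NOP56, PNO1 and PES1. At an unadjusted p under 0.05, 22 of 45 were lower (12.8% of all genes) and 0 were higher (12.6% of all genes), and edgeR's quasi-likelihood test gave 0 calls after adjustment and 20 lower and 0 higher at an unadjusted p under 0.05, where 11.0% and 13.7% of all genes were. Since the RNA was from bulk samples and counts are relative to the library, fewer cells and less RNA per cell cannot be told apart.

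CTCF-dRBR replicate 1 and GC content moved with these values. Without that library, 40 of 45 factors were below 0 with a median of −0.42, against 51.3% of genes and a median of −0.01. In the same fit 12 of 45 passed an adjusted p of 0.05, all lower (2.37% of genes tested were lower past it and 1.52% higher). With each library's trend over GC content removed, 44 of 45 were below 0, against 51.3% of genes, with a median of −0.30. In that fit 14 of 45 passed, all lower, where 5.24% of genes passed as lower and 3.97% as higher. DESeq2 on all 6 libraries called 17 of 45 as lower and 0 as higher, with 6.14% and 5.38% of all genes as the background. With libraries weighted by quality, where CTCF-dRBR replicate 1 had a weight of 0.097 and replicate 2 one of 6.19, 29 of 45 were called lower and 4 higher, against 35.8% and 32.5% of all genes. The part of GC content or of library quality in the lower levels was not tested.

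**Figure D1:**
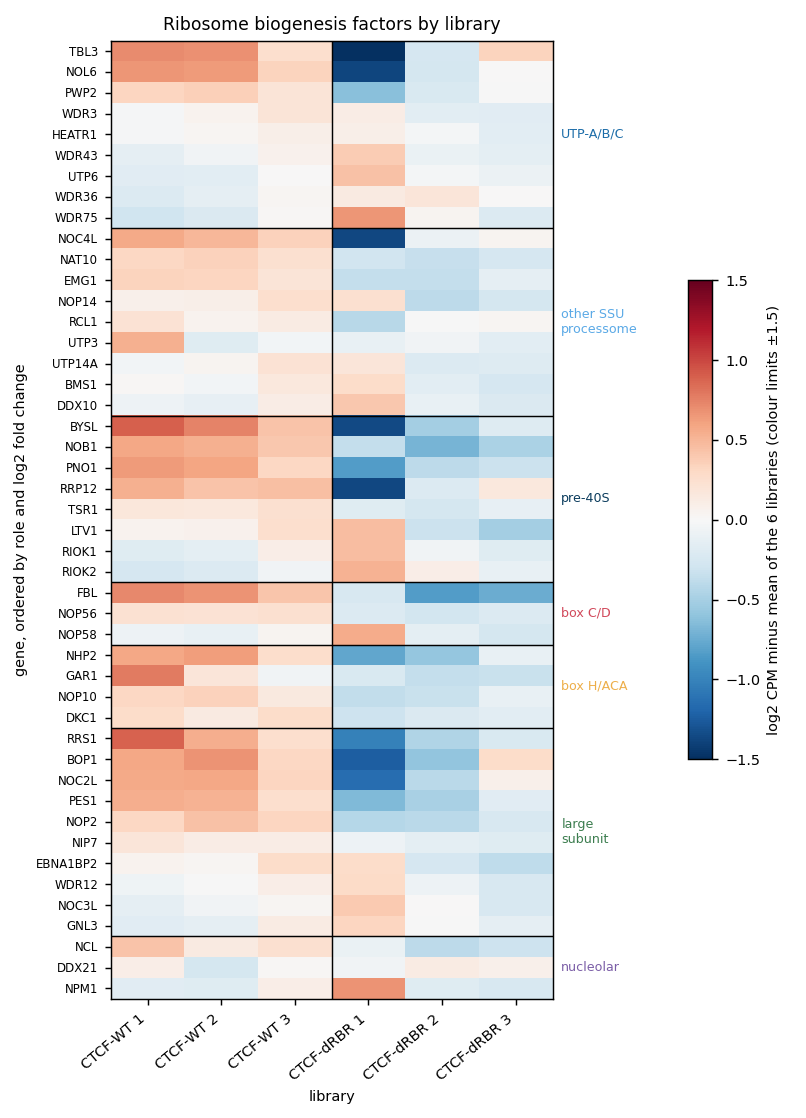
Each row is a factor and each column a library, and the color gives log2 CPM minus the mean of the 6 libraries. The rows are grouped by role. The CTCF-WT columns are mostly above the mean and the CTCF-dRBR columns below it for PNO1, FBL and the box H/ACA proteins, while in CTCF-dRBR replicate 1 NPM1, WDR75 and NOP58 are above the mean and TBL3, NOC4L and BYSL far below it.

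The median deviation of the 45 factors from the mean of the libraries was 0.21, 0.12 and 0.20 in CTCF-WT replicates 1, 2 and 3 and −0.11, −0.22 and −0.17 in CTCF-dRBR on the log2 CPM scale. The groups did not overlap, and replicate 1 had the least negative median of the mutant libraries although its single genes were spread the widest. Read by role, the median log2 fold change was −0.57 for the box H/ACA proteins, −0.49 for the large-subunit factors, −0.46 for the box C/D proteins, −0.38 for the pre-40S factors other than NOB1, −0.24 for the other small-subunit processome factors and −0.07 for the UTP subcomplexes. It was 0.09 for the multifunctional nucleolar proteins. With the GC trend removed the medians were, with the roles in the same order, −0.71, −0.29, −0.21, −0.43, −0.25, −0.16 and −0.15. The ranking of the roles thus changed, and every median was below 0. Differences between the roles were not tested.

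The pre-40S factors act last on the small subunit. NOB1 (ENSG00000141101.8) is the endonuclease that cuts the 3′ end of the 18S rRNA. It lies on the minus strand of GRCh37 at chr16:69775774-69788829, with 9 exons in its canonical transcript, and 429 of its exonic bases overlap the noncoding gene NQO1-DT on the other strand. In CTCF-WT its levels were 45.98, 44.4 and 40.5 CPM in replicates 1, 2 and 3, and in CTCF-dRBR they were 23.9, 18.98 and 22.1 CPM. These are the values that chose the list, and the groups are well apart, with means of 43.6 ± 2.81 and 21.7 ± 2.5 (SD, n = 3). The log2 fold change was −1.02, with −1.09 once CTCF-dRBR replicate 1 was left out and −0.67 after removal of the GC trend. The per-length level did not separate the groups, at 13.96, 16.5 and 22.9 TPM in CTCF-WT and 22.9, 12.3 and 10.8 in CTCF-dRBR. TPM are set relative to all RNAs, small ones included, and protein-coding genes held only 30.3% to 52.4% of the TPM in CTCF-WT and 43.5% to 63.2% in CTCF-dRBR. In TPM rescaled over protein-coding genes the means of NOB1 were 45.3 ± 1.46 in CTCF-WT and 27.9 ± 7.28 in CTCF-dRBR (SD, n = 3). The log2 fold change on that scale was −0.71.

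The stretch just before the start of NOB1 is shown because it holds 2 copies of CGCATGCG, the motif of NRF1, given in capitals. It was read from the RefSeq promoter table (build GRCh38.p14) and covers the 250 bases before the start site.
NOB1 (chr16:69754927-69755176, minus strand): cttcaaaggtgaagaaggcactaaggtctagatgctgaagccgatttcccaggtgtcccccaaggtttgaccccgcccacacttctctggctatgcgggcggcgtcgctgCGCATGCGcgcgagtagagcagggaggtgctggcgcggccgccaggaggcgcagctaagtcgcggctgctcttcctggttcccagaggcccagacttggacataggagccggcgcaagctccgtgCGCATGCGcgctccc
The copies began 140 and 15 bases before the start site. This motif, its own reverse complement, was found in 3 of the 42 factors with a promoter window (NOB1, DDX10 and DKC1), in 4.74% of the tested genes with a window and in 2.46% of all genes in the table.

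PNO1 (ENSG00000115946.3, chr2:68385020-68403370, plus strand) binds the same end of the 18S rRNA next to NOB1. Its levels were 30.6, 29.5 and 24.3 CPM in CTCF-WT and 10.97, 14.9 and 15.7 in CTCF-dRBR. All 3 mutant libraries were lower (log2 fold change −1.01 ± 0.18 SE, adjusted p = 0.096). Its exons have a GC content of 41.7%, below the median of 46.9% over all genes, and with the GC trend removed its fold change was larger, at −1.24 (adjusted p = 0.034). BYSL, a core factor of the small-subunit precursor, had 35.7, 31.9 and 25.7 CPM in CTCF-WT and 7.46, 13.4 and 16.6 in CTCF-dRBR. It had the lowest log2 fold change of all 46 factors, −1.34 ± 0.29 (adjusted p = 0.11), and −0.89 with the GC trend removed. TSR1, a GTPase-like protein that blocks early joining of the large subunit, had 119, 119 and 126 CPM in CTCF-WT and 94.2, 88.6 and 97.5 in CTCF-dRBR. Here the groups again did not overlap, with a smaller and tighter difference (−0.38 ± 0.09, adjusted p = 0.12).

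RIOK2, an atypical kinase and the tested pre-40S factor with the highest TPM, had 51.7, 53.5 and 59.6 CPM in CTCF-WT and 88.4, 66.3 and 57.1 in CTCF-dRBR. The groups overlapped and the log2 fold change was 0.32 ± 0.17 (adjusted p = 0.25). The related kinase RIOK1 had a log2 fold change of 0.13, the HEAT-repeat export factor RRP12 one of −0.87 and the assembly factor LTV1 one of −0.29, and only RRP12 of these had non-overlapping groups. RRP12 had 11.5, 25.8 and 33.1 CPM in CTCF-dRBR, and its log2 fold change was −0.50 without replicate 1 and −0.43 with the GC trend removed (adjusted p = 0.069 and 0.11). In all, 5 of the 7 tested pre-40S factors were below 0 and 0 passed the test.

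Earlier on the same path, the UTP-A, UTP-B and UTP-C subcomplexes are among the first to bind the nascent precursor. Of 9 members 5 were below 0 and 4 above. PWP2, a WD-repeat scaffold of UTP-B, had 46.7, 47.7 and 42.9 CPM in CTCF-WT and 24.1, 31.8 and 37.2 in CTCF-dRBR (log2 fold change −0.55 ± 0.16, adjusted p = 0.15). NOL6, a UTP-C protein, had 55.8, 54.9 and 44.6 CPM in CTCF-WT and 13.6, 29.4 and 35.4 in CTCF-dRBR (−1.02 ± 0.32, adjusted p = 0.15). TBL3, another UTP-B protein, had 29.6, 29.1 and 21.7 CPM in CTCF-WT and 5.46, 15.2 and 22.9 in CTCF-dRBR (−1.03 ± 0.46, adjusted p = 0.21). PWP2 and NOL6 did not overlap between the groups, while TBL3 did, and in each of the 3 the lowest library was CTCF-dRBR replicate 1. Their exons hold 57.1% to 63.9% GC. With the GC trend removed their log2 fold changes were −0.01, −0.54 and −0.21, and without replicate 1 they were −0.41, −0.68 and −0.51.

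WDR43, a UTP-A protein with the highest TPM of the group, had 190, 201 and 220 CPM in CTCF-WT and 272, 196 and 189 in CTCF-dRBR, with no separation (0.08 ± 0.16, adjusted p = 0.72). Its TPM in CTCF-dRBR replicate 1 was 258 against 90.1 and 67.5 in the other mutant libraries, a wider gap than in CPM. Small nucleolar RNAs, SNORD53 and SNORD92, lie within the gene on the same strand without exonic overlap. Whether they bear on the TPM gap was not tested. Among the others, the UTP-A proteins HEATR1 (−0.07) and WDR75 (0.32) and the UTP-B proteins WDR3 (−0.15), WDR36 (0.21) and UTP6 (0.21) had overlapping groups.

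Other small-subunit processome factors were below 0 in 8 of 9 cases. NAT10 (ENSG00000135372.4, chr11:34127164-34169217, plus strand), which acetylates cytidines of the 18S rRNA, had 94.1, 95.9 and 89.2 CPM in CTCF-WT and 62.0, 59.8 and 63.4 in CTCF-dRBR. The 2 groups did not overlap in CPM (−0.59 ± 0.09, adjusted p = 0.096). In TPM rescaled over protein-coding genes the means of NAT10 were 52.7 ± 9.65 and 53.6 ± 17.8 (SD, n = 3), a log2 fold change of −0.0078 (limma-trend adjusted p = 0.98). EMG1, a methyltransferase of the same rRNA, had 45.99, 45.8 and 41.7 CPM in CTCF-WT and 28.4, 28.4 and 33.3 in CTCF-dRBR (−0.56 ± 0.11, adjusted p = 0.11). NOC4L, a partner of NOP14 and EMG1, had 14.5, 13.9 and 12.5 CPM in CTCF-WT and 3.81, 9.21 and 10.1 in CTCF-dRBR (−0.90 ± 0.35, adjusted p = 0.19). All 3 were lower in every mutant library, and with the GC trend removed the log2 fold changes of NAT10, EMG1 and NOC4L were −0.42, −0.48 and −0.07.

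NOP14 itself had a log2 fold change of −0.29. The GTPase BMS1 was at −0.10 and its partner RCL1 at −0.24, the helicase DDX10 at 0.03, UTP3 at −0.20 and UTP14A, which activates another helicase of the processome, at −0.16. Of these only RCL1 had groups that did not overlap. BMS1 has 5 tested pseudogenes with up to 33.4 CPM in sum, and UTP14A has a near copy, UTP14C, with mean levels of 43.3 and 41.9 CPM in CTCF-WT and CTCF-dRBR, so reads of these genes may have been split between copies.

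**Figure D2:**
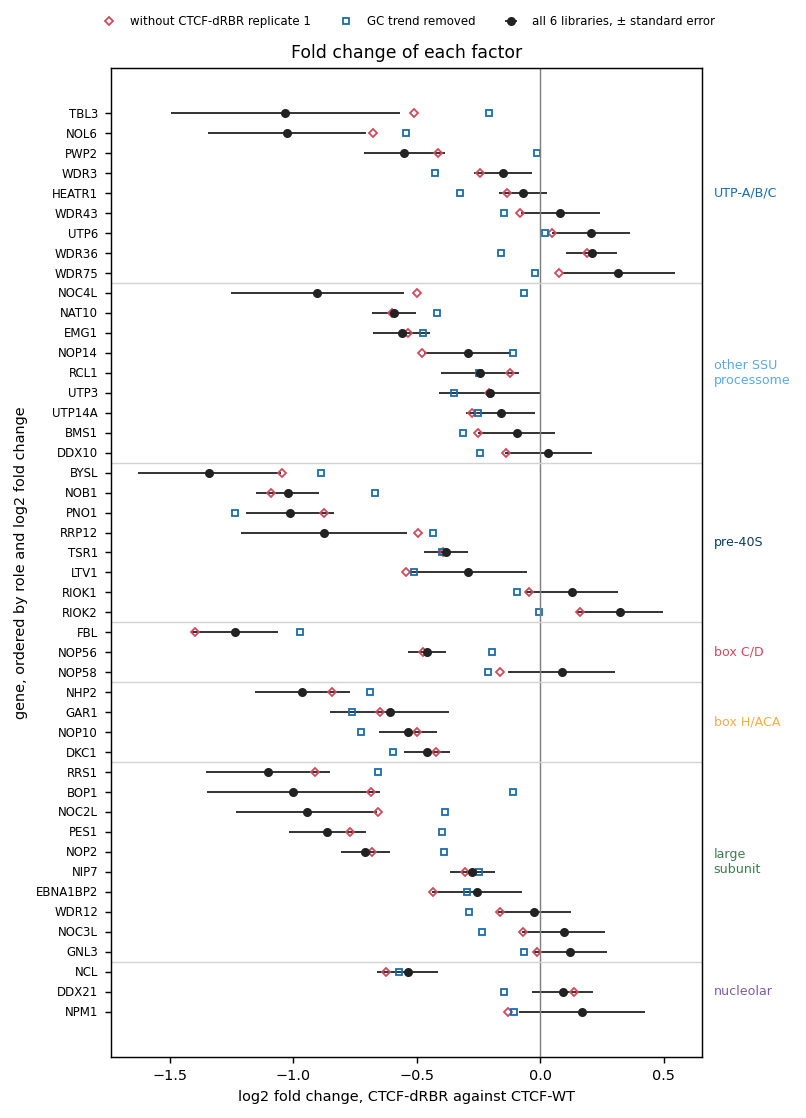
Log2 fold change of each factor in CTCF-dRBR against CTCF-WT, grouped by role. Filled circles with bars are limma-voom estimates ± standard error from all 6 libraries, red diamonds leave out CTCF-dRBR replicate 1 and blue squares have the GC trend removed. Blue squares are left of 0 for all factors shown but UTP6, and FBL, PNO1 and BYSL lie between −1.40 and −0.88 in all 3.

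Box C/D snoRNPs methylate the ribose of rRNA. FBL (fibrillarin, ENSG00000105202.3, chr19:40325098-40337019, minus strand), their methyltransferase, had 124, 120 and 100 CPM in CTCF-WT and 63.5, 42.1 and 44.9 in CTCF-dRBR. Every mutant library was well below every CTCF-WT library (−1.24 ± 0.17, adjusted p = 0.096), and without CTCF-dRBR replicate 1 the value was −1.40 (adjusted p = 0.021), while with the GC trend removed it was −0.98 (adjusted p = 0.066). NOP56 (ENSG00000101361.10, chr20:2633239-2639039, plus strand), one of the paired core proteins, had 484, 478 and 485 CPM in CTCF-WT and 356, 340 and 357 in CTCF-dRBR. Replicates differed little (−0.46 ± 0.08, adjusted p = 0.096), although the value was −0.20 with the GC trend removed (adjusted p = 0.40). In TPM rescaled over protein-coding genes NOP56 was at −0.23 (limma-trend adjusted p = 0.28) and FBL at −0.83 (0.15). NOP58, the other core protein, had 171, 168 and 186 CPM in CTCF-WT and 265, 164 and 150 in CTCF-dRBR (0.09 ± 0.22, adjusted p = 0.79). Its single high library was CTCF-dRBR replicate 1, without which its log2 fold change was −0.16.

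The balance of the 3 mRNAs can be read per length. FBL stood at 1.10, 1.24 and 1.18 TPM per TPM of NOP58 in CTCF-WT and at 0.49, 0.51 and 0.60 in CTCF-dRBR. The groups did not overlap, with means of 1.18 ± 0.066 and 0.53 ± 0.057 (SD, n = 3). FBL relative to NOP56 was 0.25 ± 0.0066 in CTCF-WT and 0.17 ± 0.030 in CTCF-dRBR, again without overlap. The ratios of NOP56 to NOP58 and of NHP2 to NOP10 also did not overlap. Those of NHP2, NOP10 and GAR1 to DKC1, BOP1 and PES1 to WDR12, BOP1 to PES1, NOP14 to NOC4L and NOB1 to PNO1 overlapped. No share over ratios of other gene pairs was obtained, so how many of these ratios lack overlap cannot be read as a result. Among single genes, every CTCF-dRBR library lay below every CTCF-WT library in 17.5% and above in 20.0%. The exons hold 53.2% GC in FBL, 52.8% in NOP56 and 39.2% in NOP58. The part of GC content in these ratios was not tested. Small nucleolar RNAs lie within NOP56 and NOP58 on the same strand, as they do within WDR43, TSR1, DKC1, GNL3 and NCL.

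All 4 box H/ACA proteins were lower in every CTCF-dRBR library than in every CTCF-WT library, an order found in 17.5% of all genes. DKC1 (dyskerin), the pseudouridine synthase, had 167, 151 and 166 CPM in CTCF-WT and 110, 118 and 123 in CTCF-dRBR (−0.46 ± 0.09, adjusted p = 0.11). NHP2, a core protein of the L7Ae family, had 114, 118 and 91.9 CPM in CTCF-WT and 44.6, 50.9 and 70.5 in CTCF-dRBR (−0.96 ± 0.19, adjusted p = 0.11). NOP10, a small protein that contacts DKC1 and NHP2, had 67.5, 69.2 and 60.2 CPM in CTCF-WT and 42.2, 43.0 and 50.2 in CTCF-dRBR (−0.54 ± 0.12, adjusted p = 0.11). In these 3 genes each of the mutant libraries was below the lowest CTCF-WT library, with a gap wider than the spread within either group for DKC1 and NOP10. GAR1, the fourth protein, ranged from 6.265 to 11.25 CPM in CTCF-WT and from 5.08 to 5.58 in CTCF-dRBR (−0.61 ± 0.24, adjusted p = 0.19). With the GC trend removed the values were −0.59, −0.69, −0.73 and −0.76, and the first 3 passed the test, with adjusted p of 0.026, 0.025 and 0.041. In that fit 5.24% of genes passed as lower and 3.97% as higher. With the replicate number added to it as a block, 0 genes passed. DKC1 and NOP10 have a GC content of 44.9% and 42.96%, both below the median of all genes. In TPM rescaled over protein-coding genes DKC1 was at −0.08 (limma-trend adjusted p = 0.76), with NHP2, NOP10 and GAR1 at −0.94, −0.55 and −0.54. These proteins also belong to telomerase.

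Large-subunit factors were below 0 in 8 of 10 cases, 6 of them without overlap, beside 50.6% and 17.5% of all genes. Exonic GC content was 48.4% to 65.4% in these 6 and 37.6% to 47.0% in the others. The part of GC content in this split was not tested. NOP2 (ENSG00000111641.6, chr12:6666029-6677857, minus strand), a methyltransferase of the 28S rRNA, had 92.5, 101 and 93.4 CPM in CTCF-WT and 55.3, 56.5 and 63.1 in CTCF-dRBR (−0.71 ± 0.10, adjusted p = 0.096). PES1 (ENSG00000100029.13, chr22:30972612-31003070, minus strand), a subunit of the PeBoW complex, had 111, 110 and 90.5 CPM in CTCF-WT and 48.3, 54.4 and 67.7 in CTCF-dRBR (−0.86 ± 0.16, adjusted p = 0.096). RRS1, which brings the 5S RNA into the particle, had 35.8, 28.3 and 23.1 CPM in CTCF-WT and 9.60, 14.1 and 16.4 in CTCF-dRBR (−1.10 ± 0.25, adjusted p = 0.12). In each of these genes the groups were apart, with the smallest gap in CPM for RRS1. After removal of the GC trend NOP2 was at −0.39 (adjusted p = 0.13), PES1 at −0.40 (0.11) and RRS1 at −0.66 (0.032). In TPM rescaled over protein-coding genes NOP2 was at −0.37 (limma-trend adjusted p = 0.16), PES1 at −0.48 (0.15) and RRS1 at −1.0 (0.15). GNL3 (nucleostemin), a GTPase with the highest TPM of the group, had 242, 248 and 295 CPM in CTCF-WT and 341, 271 and 247 in CTCF-dRBR, which overlap (0.12 ± 0.15, adjusted p = 0.58).

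The PeBoW complex joins PES1, BOP1 and WDR12. BOP1 had a log2 fold change of −1.0 ± 0.35 (adjusted p = 0.17), and its exons have the highest GC content of all 46 factors, 65.4%. With the GC trend removed BOP1 was at −0.11 (adjusted p = 0.69). WDR12 was at −0.02 ± 0.15, with overlapping groups and a GC content of 40.3%. NOC2L, a transport factor of the large-subunit precursor, was at −0.95, or −0.39 with the GC trend removed, and its relative NOC3L at 0.09, NIP7 at −0.27 and EBNA1BP2 at −0.26. Of these NOC2L and NIP7 were without overlap. In TPM rescaled over protein-coding genes NOC2L was at −0.74 (limma-trend adjusted p = 0.16) and NIP7 at −0.05 (0.81). PES1 and NIP7 share exonic bases with a gene on the other strand, which holds for 21 of the 46 factors, 13 of them with a protein-coding gene. Exonic bases are also shared on the same strand, most in PWP2 (3188, with an entry marked as an artifact), NOP2 (2550), TBL3 (1286), EMG1 (622) and LTV1 (511). These overlaps were read from a lifted Gencode annotation, not from the release used for the deposited counts. Whether such overlaps moved the counts was not tested.

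Nucleolar proteins with several functions make up the last group. NCL (nucleolin), which acts in rRNA transcription and processing, had 792, 645 and 697 CPM in CTCF-WT and 551, 448 and 474 in CTCF-dRBR (−0.54 ± 0.12, adjusted p = 0.12). With the GC trend removed NCL was at −0.57, and in TPM rescaled over protein-coding genes at −0.21 (limma-trend adjusted p = 0.38). NPM1 (nucleophosmin), a histone and ribosome chaperone, had 1920, 1903 and 2314 CPM in CTCF-WT and 3448, 1912 and 1826 in CTCF-dRBR (0.17 ± 0.26, adjusted p = 0.64). DDX21, an RNA helicase, had 302, 234 and 285 CPM in CTCF-WT and 270, 306 and 295 in CTCF-dRBR (0.09 ± 0.12, adjusted p = 0.61). Only NCL was lower in every mutant library, and the single high value of NPM1 was again CTCF-dRBR replicate 1. NPM1 has 7 tested pseudogenes with up to 210 CPM in sum, which may have shared its reads.

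**Figure D3:**
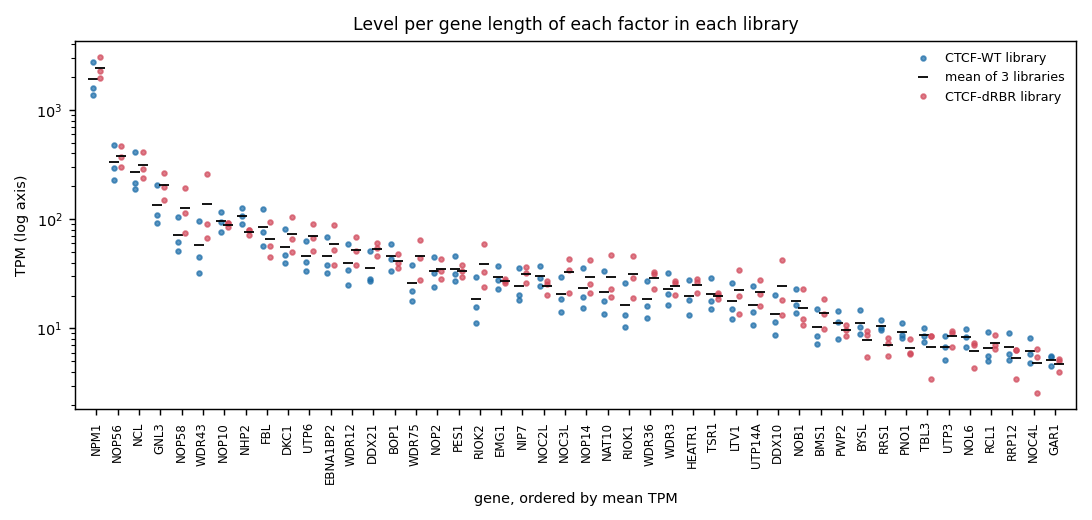
TPM of each factor in each library on a log axis, ordered by the mean of all 6 libraries, with CTCF-WT in blue, CTCF-dRBR in red and black dashes for the mean of 3 libraries. NPM1 has the highest level and GAR1 the lowest, and the libraries of both groups overlap for most factors.

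Per length, the factors spanned a mean of 4.98 TPM (GAR1) to 2157 TPM (NPM1) over the 6 libraries. After NPM1 came NOP56 (358 TPM), NCL (293) and GNL3 (170), and then NOP58 and WDR43 (99.7 and 98.3), which did not differ beyond their spread. NPM1 alone made up 49.2% ± 0.83 of the summed TPM of the 46 in CTCF-WT and 50.5% ± 1.29 in CTCF-dRBR (SD, n = 3). The 46 together held 0.96% ± 0.078 of protein-coding TPM in CTCF-WT and 0.89% ± 0.072 in CTCF-dRBR, a difference within the spread. On log2(TPM + 1) without rescaling only 16 of 45 factors were below 0, as were 17.6% of all genes, and the median was 0.28 for the factors and 0.40 for all genes on that scale. Rescaled over protein-coding genes, 32 of 45 were below 0, as were 42.9% of the 11700 protein-coding genes tested, whose median was 0.08.

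**Figure D4:**
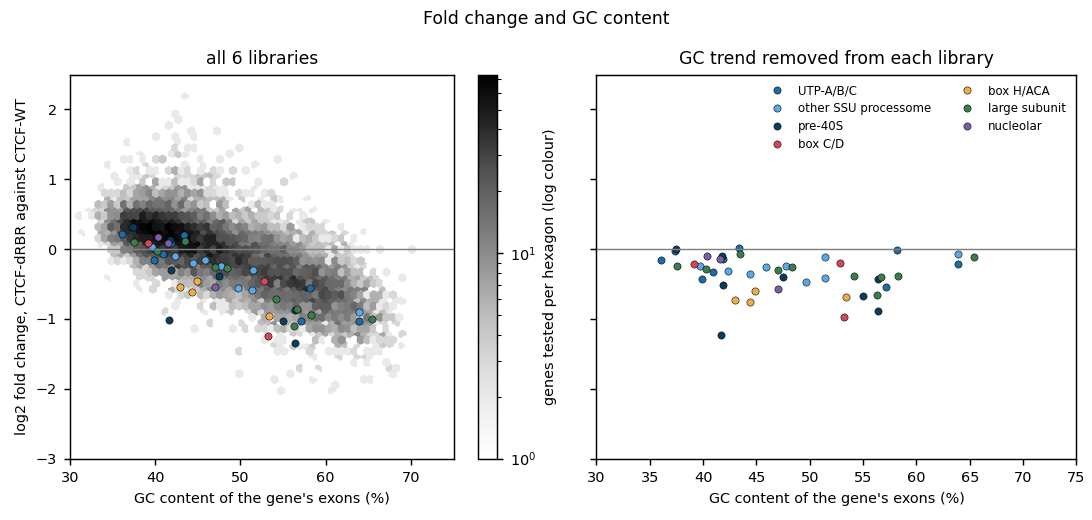
Left, log2 fold change against exonic GC content for all tested genes (gray hexagons, darker for more genes) and for the 46 factors (points colored by role). Right, the same factors with the GC trend removed from each library. Factors rich in GC are lowest on the left, and on the right all but UTP6 lie below 0.

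Fold change and GC content went together across the factors. Pearson's r was −0.83 over the 45 factors and −0.58 over the 13654 tested genes with a GC content, given as a description since genes of one library share its depth and composition. The 22 factors with a GC content above the factors' median of 45.9% were all below 0, with a median log2 fold change of −0.79. Of the 23 at or under it, 11 were below 0, with a median of 0.03. Without CTCF-dRBR replicate 1 r was −0.66 over the factors and 18 of these 23 were below 0, and with the GC trend removed r was −0.12 and 22 of the 23 were below 0 with a median of −0.24.

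E-boxes (CACGTG, the same on both strands) were found in the promoter windows of 19 of the 42 factors that the RefSeq table matched (45.2%). A window runs from 250 bases before to 50 after a start site, and the same letters occurred in 8.77% of all 27305 genes in the table and in 12.8% of the 9016 tested genes found there. Of 21 matches, 15 began within the transcript, 2 to 43 bases from its start. The ETS motif CCGGAAG was found in 38.1% of the factors and 23.5% of the tested genes, the GC box GGGCGG in 78.6% and 76.8%, CCAAT in 40.5% and 44.2%, the YY1 motif AAGATGG in 14.3% and 10.04% and TATAAA in 4.76% and 8.22%. All were searched on both strands.

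**Figure D5:**
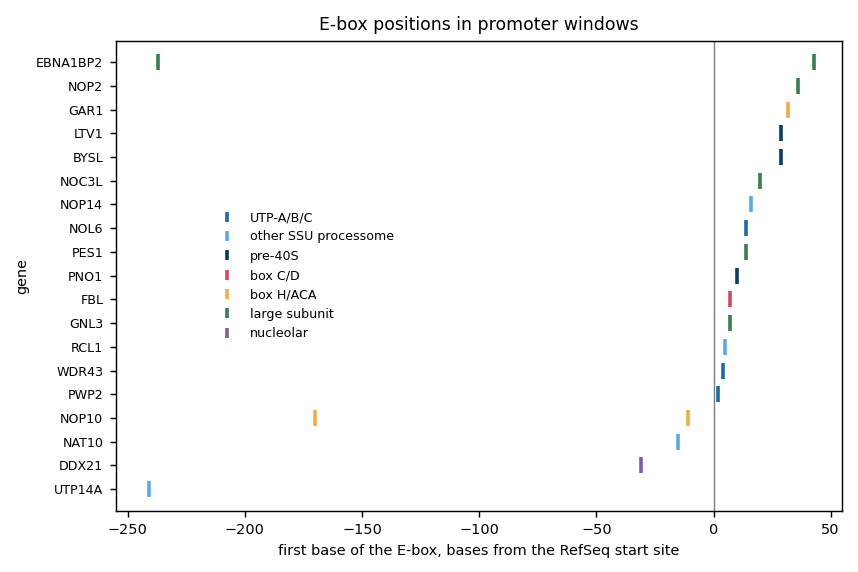
First base of each E-box in the promoter windows, in bases from the RefSeq start site (gray line), for the 19 factors that have one. Most marks lie from 2 to 43 bases after the start site, and 6 lie before it.

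The bases around the E-box nearest to the start are given for the factors with values in every library above, in GRCh38.p14 and on the strand of the gene, with the E-box in capitals. They show that the neighbors of the motif differ from gene to gene and that it is present in factors that were lower as well as in GNL3, WDR43 and DDX21.
FBL (chr19:39846356-39846385, minus strand): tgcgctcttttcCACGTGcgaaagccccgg
PNO1 (chr2:68157885-68157914, plus strand): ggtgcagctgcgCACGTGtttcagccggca
BYSL (chr6:41921515-41921544, plus strand): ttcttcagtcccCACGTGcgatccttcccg
NOP10 (chr15:34343130-34343159, minus strand): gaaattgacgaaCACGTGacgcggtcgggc
NAT10 (chr11:34105602-34105631, plus strand): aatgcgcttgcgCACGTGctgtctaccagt
NOP2 (chr12:6568242-6568268, minus strand): aggtccggattgCACGTGgagggccgc
PES1 (chr22:30591880-30591909, minus strand): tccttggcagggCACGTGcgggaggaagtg
NOL6 (chr9:33473894-33473923, minus strand): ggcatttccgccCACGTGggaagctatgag
PWP2 (chr21:44107388-44107417, plus strand): tgagctgcggcaCACGTGcgacggccgtga
GNL3 (chr3:52686026-52686055, plus strand): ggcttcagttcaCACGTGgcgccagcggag
WDR43 (chr2:28894658-28894687, plus strand): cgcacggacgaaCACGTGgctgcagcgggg
DDX21 (chr10:68956604-68956633, plus strand): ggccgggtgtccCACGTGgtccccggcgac
Of the 19 factors with an E-box, 15 were below 0, with a median log2 fold change of −0.54. Among the 22 with a window but no E-box, NOB1 aside, 15 were below 0, with a median of −0.18. With the GC trend removed the medians were −0.39 and −0.27. Whether the motif goes with the fold change was not tested, and the median GC content of the exons was 47.0% and 43.9%.

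Other genes of the pathway were taken from 5 lists by function, also chosen with earlier results of these data known. The lists hold 131 genes, all tested. Of these, 87 were below 0 and 44 above, with a median of −0.16, where 50.6% of all genes were below 0. In 58 every CTCF-dRBR library lay below every CTCF-WT library and in 1 above, beside the 17.5% and 20.0% of all genes, and 0 had an adjusted p under 0.05 while 55 were lower and 1 higher at an unadjusted p under 0.05, as were 12.8% and 12.6% of all genes. With the GC trend removed, 110 of the 128 with a GC content were below 0, against 51.3% of genes.

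RNA polymerase I and its factors, which transcribe the precursor, were lower in 11 of 15 (median −0.17). Within that list the subunits POLR1G (listed as CD3EAP) and POLR1A had log2 fold changes of −0.82 ± 0.15 and −0.72 ± 0.16 (adjusted p = 0.096 and 0.12). Of 35 other small-subunit factors 24 were lower (median −0.19), led by BUD23 (listed as WBSCR22), an 18S rRNA methyltransferase, at −1.0 ± 0.15 and UTP4 (listed as CIRH1A) at −0.77 ± 0.10 (both adjusted p = 0.096). Of 49 other large-subunit factors 33 were lower (median −0.21), with NOP16 at −0.62 ± 0.10 and LAS1L at −0.60 ± 0.10 (both adjusted p = 0.096). Of 12 genes of snoRNP assembly and transport 10 were lower (median −0.32), with NOLC1 at −0.60 ± 0.10 and the ATPase RUVBL1 at −0.48 ± 0.10 (adjusted p = 0.096 and 0.11). The nuclear exosome and processing nucleases were lower in 9 of 20 (median 0.02), although EXOSC5 was at −1.33 ± 0.39 and POP1 at −0.32 ± 0.09 (both adjusted p = 0.15). The genes named are the 2 with the smallest unadjusted p in each list.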

How the data were processed

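Total RNA-seq of 6 SEM libraries was analyzed as genes by libraries. Per the labels and methods, reads were trimmed with Trim Galore (version 0.6.3), aligned to GRCh37 with STAR (version 2.7.9a) and quantified over Gencode genes with RSEM (version 1.3.1). The authors deposited expected counts per gene, not normalized, and TPM scaled over all genes. The methods describe paired-end reads and the labels single-end ones. The deposited counts and TPM are labelled as stranded, and no further detail of how the counting used the strand was given in the sources used here. Columns with the authors' own fold changes were not used.

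Expected counts of genes with at least 1 CPM in any library were TMM-normalized and CTCF-dRBR was set against CTCF-WT by limma-voom (limma version 3.58.1, edgeR version 4.0.16, R version 4.3.3) without covariates. Tests were two-sided, with Benjamini-Hochberg adjustment over all 14044 genes. Rounded counts entered edgeR and DESeq2 (version 1.42.0). Errors of fold changes are standard errors, and those of levels are SD. Values in every library were given for NOB1 and, per role, for the 3 members with the smallest unadjusted p and the member with the highest TPM. From each list of other pathway genes the 2 with the smallest p were named. GC trends were loess fits (span 0.5, degree 2) of each library's log2 CPM (prior count 1) minus the mean of the libraries. GC content came from GRCh37 and a lifted Gencode annotation for 13654 genes (97.2%). The fits were tested on simulated counts. The members and lists were chosen with earlier results of these data known. Alternatives are given in the closing section.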

Additional observations from a re-analysis of the deposited data

How the results depend on the processing

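Depth did not limit detection of the factors: 3 counts correspond to 0.056 to 0.0999 CPM in these libraries, below the lowest value of any factor, 3.81 CPM (NOC4L). The adjusted p threshold of 0.05 was passed by 0 genes in the main comparison and by 0 with edgeR, other normalizations or filters, the length trend removed or TPM rescaled over protein-coding genes. It was passed by 1619 genes and 17 of the 45 factors with DESeq2, by 9583 and 33 with libraries weighted by quality, by 1258 and 14 with the GC trend removed, and by 833 and 760 genes but 0 factors on log2(TPM + 1) and log2(TPM + 0.1). Leaving out 1 library gave 0 to 535 genes and 0 to 12 factors, the highest of each without CTCF-dRBR replicate 1. The cause of these differences was not tested.

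The factors' median, −0.29, became −0.40 with quality weights, −0.22 with library size only, −0.38 without a filter on low counts, 0.28 on log2(TPM + 1), 0.29 on log2(TPM + 0.1), −0.17 with TPM rescaled and −0.18 with the length trend removed. Leaving out 1 library gave −0.42 to −0.29. The median of all genes was 0.19 without a filter and 0.54 on log2(TPM + 0.1), and at most 0.08 from 0 elsewhere save on log2(TPM + 1).

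The labels do not say whether same-numbered libraries were paired. The deviations of same-numbered libraries had correlations of −0.34, 0.099 and −0.47, and those of different-numbered ones ranged from −0.27 to 0.42. These values cannot decide the pairing, because each library also has its own GC trend. With the number as a replicate block 0 genes and 0 factors passed, the median was −0.28 and 18 factors were lower at an unadjusted p under 0.05, as were 5.55% of all genes, with 0 factors and 4.59% of all genes higher. With the block and the GC trend removed together 0 passed, against 14 without the block, with a median of −0.29.

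Over the 18 alternatives other than unrescaled TPM, 15 of the 46 factors changed the sign of their log2 fold change at least once. A further 13 changed it only on unrescaled TPM, a scale on which most genes moved up. On log2(TPM + 1) and log2(TPM + 0.1), in this order, the sign changed for HEATR1 (0.38, 0.40), WDR3 (0.12, 0.13), UTP3 (0.29, 0.33), UTP14A (0.41, 0.43), NOP14 (0.35, 0.37), NAT10 (0.44, 0.46), BMS1 (0.43, 0.47), RCL1 (0.18, 0.21), TSR1 (0.00256, 0.00483), LTV1 (0.28, 0.29), NOP56 (0.24, 0.24), DKC1 (0.38, 0.39), WDR12 (0.46, 0.47), NOP2 (0.0895, 0.0926), EBNA1BP2 (0.35, 0.35), NIP7 (0.40, 0.42) and NCL (0.25, 0.25). With the GC trend removed, without and with the replicate block, it changed for WDR43 (−0.15, −0.15), WDR75 (−0.0208, −0.0173), WDR36 (−0.16, −0.16), DDX10 (−0.24, −0.24), RIOK1 (−0.0937, −0.0867), RIOK2 (−0.00444, −0.00315), NOP58 (−0.21, −0.21), NOC3L (−0.24, −0.24), GNL3 (−0.0665, −0.0665), NPM1 (−0.10, −0.10) and DDX21 (−0.15, −0.15). It changed with TPM rescaled for BMS1 (0.00321), WDR12 (0.00422) and NPM1 (−0.0833), with quality weights for WDR43 (−0.0331), DDX10 (−0.0169), NOP58 (−0.0494) and NPM1 (−0.00691), without a filter for WDR43 (−0.015), DDX10 (−0.0489) and NOP58 (−0.0168), with the length trend removed for UTP3 (0.0143) and DDX10 (−0.10), with library size only for HEATR1 (0.00282) and WDR12 (0.0537), with edgeR for WDR12 (0.00295) and with DESeq2 for WDR12 (0.00993). Leaving out 1 library changed it for BMS1 (−0.25 to 0.00928), DDX10 (−0.14 to 0.15), DDX21 (−0.0173 to 0.16), GNL3 (−0.0134 to 0.22), NOC3L (−0.068 to 0.24), NOP58 (−0.16 to 0.25), NPM1 (−0.13 to 0.34), RIOK1 (−0.0466 to 0.26), WDR12 (−0.16 to 0.0932) and WDR43 (−0.0839 to 0.18), given as ranges.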
